A study of Homo sapiens with 12 samples.

Results

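The genes described here are 48 that charge transfer RNAs with amino acids or that respond to a shortage of them, measured in MV3 melanoma cells given macrophage vesicles. They comprise 20 genes of cytosolic aminoacyl-tRNA synthetases, 16 of mitochondrial synthetases, 6 regulators and effectors of the integrated stress response (ATF4, DDIT3, TRIB3, CHAC1, SESN2 and CEBPB) and 6 enzymes of serine, one-carbon and asparagine metabolism (ASNS, PSAT1, PHGDH, PSPH, SHMT2 and MTHFD2). They were taken from a list of names, drawn up with earlier results of these data known. All 48 were found among the 28093 named genes of the table, each as its transcript with the most counts, and all 48 passed the filter on low counts that left 13112 genes for testing. Their counts over all libraries ranged from 428 for CHAC1 to 53467 for AARS1.

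MV3 is an established human melanoma cell line. Cells in 12-well plates spent 3 h in RPMI medium with 1% vesicle-depleted serum. Over the next 24 h they received PBS (the Ctrl group) or extracellular vesicles (EVs) at 1e10 particles in each well. The EVs were collected by ultracentrifugation from THP-1 cells, a human monocytic leukaemia line, after 48 h of polarization to macrophages of the M0, M1 or M2 state, with agents not given in the sources used here. Every group, Ctrl and the M0 EV, M1 EV and M2 EV groups alike, had 3 libraries of poly(A) RNA. Whether these came from separate cultures or EV preparations is not said, so p-values and errors cover only the variation among these samples, which may be technical.

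Aminoacyl-tRNA synthetases join each amino acid to its transfer RNA, with 1 set of enzymes in the cytosol and another, also encoded in the nucleus, in mitochondria. Several cytosolic enzymes are held in a multisynthetase complex on the scaffold proteins AIMP1, AIMP2 and EEF1E1. GARS1 and KARS1 encode both the cytosolic and the mitochondrial enzyme for glycine and lysine. In the integrated stress response, the kinases GCN2 (EIF2AK4), PERK (EIF2AK3), PKR (EIF2AK2) and HRI (EIF2AK1) phosphorylate the translation factor eIF2. General translation then falls, while translation of ATF4 mRNA rises. ATF4, a bZIP transcription factor, is known to raise many cytosolic synthetase genes, ASNS, the serine pathway enzymes, DDIT3, TRIB3, CHAC1 and SESN2. ATF4 is controlled largely through translation, which RNA counts do not measure.

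The element through which ATF4 and C/EBP proteins such as CEBPB bind these genes joins a site of each family, and is written here as TGATGCAA, or TGATGNAA where any base is allowed at 1 place. Promoters were taken from RefSeq (GRCh38.p14) as the 250 bases before a start site, and 40 of the 48 genes had an entry. On either strand, TGATGCAA was in 3 of these 40 (7.5%) and in 264 of 27305 genes with a promoter (0.97%), and TGATGNAA, which covers the first motif, was in 6 of 40 (15%) against 3.89%. The windows below are shown because they let the motif be read beside the gene's response, with the motif in capitals, 5′ to 3′ along the gene's strand. TTGCATCA is the same element read on the other strand. They lie at chr16:70289675-70289704 (minus strand) for AARS1, chr9:92293698-92293721 (minus) for IARS1, chr15:40953251-40953280 (plus) for CHAC1 and chr7:97872458-97872487 (minus) for ASNS.
AARS1: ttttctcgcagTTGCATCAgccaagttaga
IARS1: ttttcagcgcgTTGCATCAcctcc
CHAC1: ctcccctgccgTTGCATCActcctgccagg
ASNS: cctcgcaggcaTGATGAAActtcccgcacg
The motif began 187 bases before the start site in AARS1, 13 in IARS1, 209 in CHAC1 and 68 in ASNS. With M1 EVs, as given below, IARS1 rose, AARS1 fell, and CHAC1 and ASNS did not pass the test. Over all 6 genes with TGATGNAA, which also include GARS1 and YARS2, 1 rose, 1 fell and 4 did not pass. A match is a stretch of letters, not a measured binding site.

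The libraries held 9694498 to 14379215 counts over named genes. Within a group, pairs of libraries varied by 1.04 to 2.34 times the sampling noise, as chi-square over its degrees of freedom, lowest for M0 EV replicates 2 and 3. Of 16 melanoma markers, the pigment cell genes were absent or nearly so: TYR, DCT and S100B had no count in any library, SOX10 had 2 counts in all, and MITF lay below 1 CPM (counts scaled to a common library size) in each group. VIM, AXL, NES, CSPG4 and SOX9 were expressed, at 5060, 1310, 697, 128 and 111 CPM in Ctrl. Of 32 macrophage markers, 11 had no count in any library, among them CD163, TYROBP and C1QA, and PTPRC had 2 counts in all. Their summed level was 59.3 to 68.0 CPM in Ctrl, 63.7 to 65.5 in M0 EV, 74.6 to 77.5 in M1 EV and 64.8 to 68.4 in M2 EV. Most of it was CD68, at 56.7 CPM in Ctrl and 66.8 in M1 EV, and CTSS went from 0.804 to 3.25 CPM. That sum moved with the M1 EV group, and its part in the results below was not tested.

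In PBS cells, levels per kilobase of transcript set the 2 sets of synthetases apart. The cytosolic genes had a median of 62.5 CPM per kb, from 2.03 for TARS3, a second cytosolic threonyl-tRNA synthetase, to 115 for AARS1, the alanyl-tRNA synthetase. The mitochondrial genes had a median of 12.4, from 3.19 for PARS2 (proline) to 51.3 for IARS2 (isoleucine). In each of 16 pairs that serve the same amino acid, the cytosolic gene was the higher, by 1.51 times for IARS1 over IARS2 up to 18.9 times for WARS1 over WARS2 (median 4.51). FARS2 was paired with both FARSA and FARSB, and EPRS1 with EARS2 and not with PARS2. ATF4 itself was at 120 CPM per kb, above every synthetase gene, whereas DDIT3 (the factor CHOP), CEBPB, TRIB3 and SESN2 lay at 11.9, 25.2, 22.4 and 2.23. ASNS, asparagine synthetase, was the lowest of its group at 14.5, and SHMT2, the mitochondrial serine hydroxymethyltransferase, the highest at 58.7. CHAC1, which breaks down glutathione, had no transcript length and was at 3.28 ± 0.277 CPM (SD, n = 3).

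**Figure D1:**
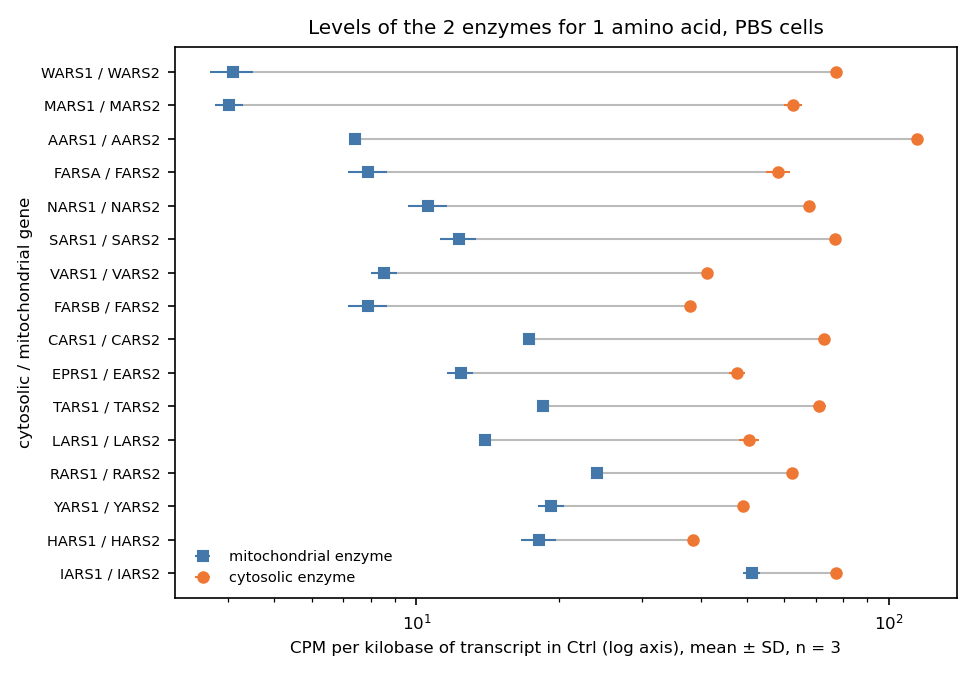
Level of the cytosolic (orange circles) and mitochondrial (blue squares) synthetase gene for the same amino acid in PBS-treated MV3 cells, as mean CPM per kilobase of transcript with SD over 3 libraries, on a log axis. The cytosolic gene lies to the right in all 16 pairs, and the gap is narrowest for IARS1 and IARS2 (1.51 times).

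Setting M1 EV beside Ctrl tests the response of the melanoma cells to vesicles of the M1 state, which the study's title names. Of the 48 genes, 15 rose and 4 fell at an adjusted p below 0.05 (edgeR quasi-likelihood test, Benjamini-Hochberg over all 13112 genes), and the changes were small. CEBPB rose 1.67-fold and MARS2 1.40-fold, and no other called gene rose by more than 1.21-fold or fell below 0.836 times its Ctrl level. The median absolute log2 fold change of the 19 genes was 0.147. ATF4 and its effectors DDIT3, TRIB3, CHAC1 and SESN2 did not pass the test. Within the serine pathway, genes moved in opposite directions, with PHGDH and PSAT1 lower and SHMT2 and MTHFD2 higher.

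The share called must be read against the whole table. In M1 EV against Ctrl, 28.1% of all tested genes were called, 14.3% higher and 13.7% lower, and 35.3% of the 8026 genes with a mean of at least 20 CPM. The 48 genes gave 39.6%, and the 40 of them with a mean of at least 20 CPM gave 45% (14 higher, 4 lower), as a count with no test. The median log2 fold change of the 48 was 0.04 against 0.0008 for all genes, and their median absolute change was 0.0999 against 0.118. Among genes with a mean of at least 20 CPM, the median was 0.03 for the 40 and 0.01 for all 8026. The median absolute change was then 0.104 for the 40 and 0.0932 for all 8026. The 3 M1 EV libraries did not overlap the 3 Ctrl libraries in 23 of the 48 genes, among them all 19 called. The calls come from the same libraries, so this adds no support to them. The share of all tested genes without such overlap was not counted. CPM values are shares of a library, so a change in a gene's RNA per cell and a change in total RNA per cell cannot be told apart.

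**Figure D2:**
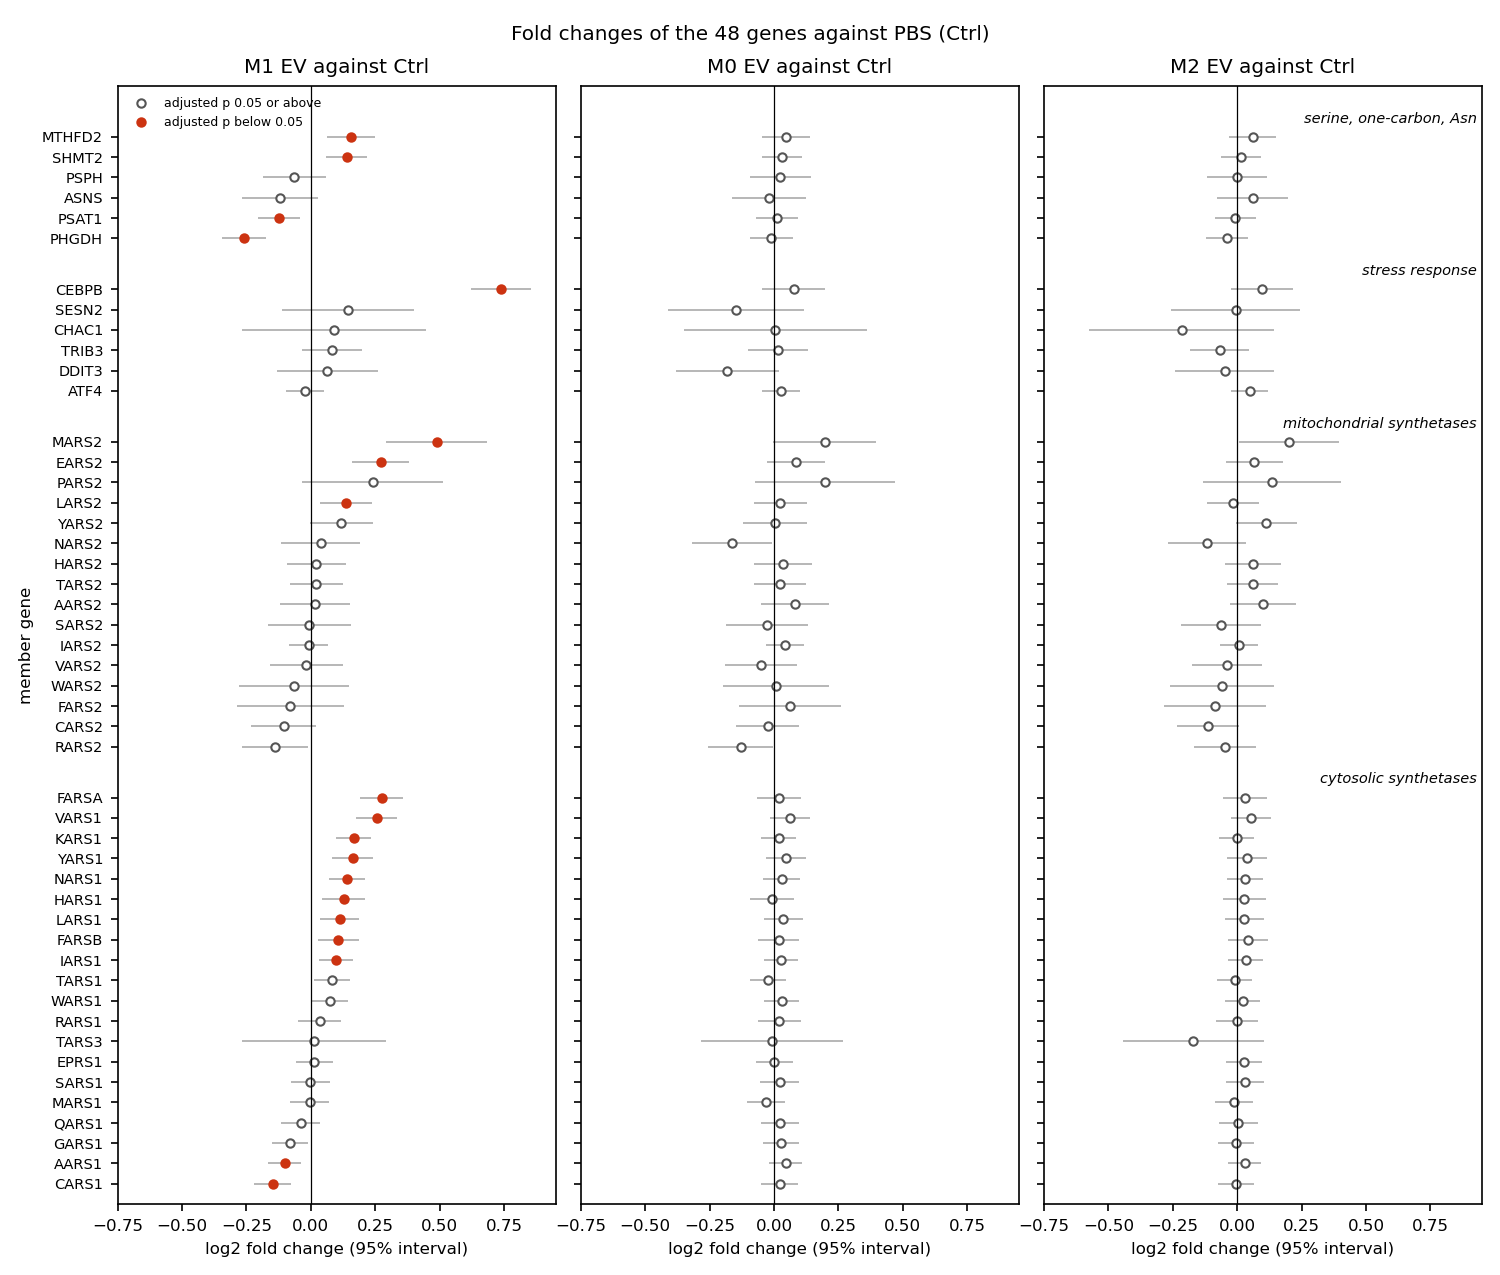
Log2 fold change of each of the 48 genes against Ctrl for M1 EV, M0 EV and M2 EV, with 95% intervals, grouped by role. Filled red points have an adjusted p below 0.05: 19 in the M1 EV panel and 0 in the other panels, where the points lie between -0.22 and 0.20.

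Among the 20 cytosolic synthetase genes 55% were called, beside 28.1% of all genes and 35.3% of those with a mean of at least 20 CPM. Of the 20, 9 rose (FARSA, FARSB, HARS1, IARS1, KARS1, LARS1, NARS1, VARS1 and YARS1), 2 fell (AARS1 and CARS1) and 9 did not pass. Their log2 fold changes ranged from -0.15 to 0.28, with a median of 0.08. Their summed level was 3978 to 3993 CPM in Ctrl, 4005 to 4098 in M0 EV, 4111 to 4174 in M1 EV and 4005 to 4056 in M2 EV, so that the M1 EV libraries lay above all others. The count was 7 higher and 3 lower (1660 and 1990 of all genes) when counts were scaled by library totals alone. It also changed when single libraries were left out: 11 genes were called with all libraries, 7 without Ctrl replicate 1, 6 without Ctrl replicate 3 and 7 without M1 EV replicate 3. Of all genes, 1881 were higher and 1801 lower with all libraries. Without those libraries in turn, the counts were 1576 and 1471, 1585 and 1507, and 1789 and 1530.

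FARSA, the catalytic subunit of the phenylalanyl-tRNA synthetase, had the largest rise of the cytosolic set. It was at 108.4, 99.2 and 110.4 CPM in the Ctrl libraries, at 107.8, 105.9 and 109.0 in M0 EV, at 128.1, 129.8 and 127.3 in M1 EV and at 111.8, 106.7 and 107.0 in M2 EV. All 3 M1 EV libraries were above the other 9, and the log2 fold change over Ctrl was 0.28 ± 0.042 (SE, adjusted p = 1.92e-06). FARSB, the other subunit of that enzyme, averaged 128.1 ± 1.74 CPM in Ctrl and 138.1 ± 4.30 in M1 EV (SD over 3 libraries), which is 0.11 ± 0.039 on the log2 scale (adjusted p = 0.0371). FARSB lost its call in 10 of 25 alternatives, among them without Ctrl replicate 1 (adjusted p = 0.0786), Ctrl replicate 2 (0.1), Ctrl replicate 3 (0.0536), M1 EV replicate 1 (0.0595) and M1 EV replicate 3 (0.147). FARSA lies at chr19:12922479-12933711 and overlaps an antisense gene, FARSA-AS1. Whether strand was used in counting, which would part such pairs, was not stated.

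VARS1, the valyl-tRNA synthetase (chr6:31777518-31795752), read 181.6, 175.3 and 177.0 CPM in Ctrl and 208.0, 223.6 and 205.4 in M1 EV. The M0 EV libraries were at 183.3, 182.5 and 191.4 and the M2 EV libraries at 192.1, 185.0 and 177.4. No M1 EV library overlapped another group, and the log2 fold change over Ctrl was 0.26 ± 0.039 (adjusted p = 1.98e-06). KARS1 (lysine) went from 244.7 ± 3.24 to 274.8 ± 3.34 CPM, YARS1 (tyrosine) from 159.2 ± 1.97 to 178.1 ± 5.50 and NARS1 (asparagine) from 209.8 ± 2.56 to 231.3 ± 6.98. Their log2 fold changes were 0.17 ± 0.034, 0.16 ± 0.039 and 0.14 ± 0.035 (adjusted p = 0.000179, 0.00141 and 0.00181). These 3 kept the call with any single library left out. YARS1 overlaps the gene S100PBP over 797 bases.

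HARS1 (histidine), LARS1 (leucine) and IARS1 (isoleucine) rose by less, with log2 fold changes of 0.13 ± 0.041, 0.11 ± 0.038 and 0.10 ± 0.033 (adjusted p = 0.018, 0.0226 and 0.0236). Each call was lost in some fits that left out 1 library. HARS1 was not called without Ctrl replicate 2 (adjusted p = 0.0653), Ctrl replicate 3 (0.0561) or M1 EV replicate 1 (0.114). LARS1 was not called without Ctrl replicate 1 (0.0505), Ctrl replicate 3 (0.186) or M1 EV replicate 3 (0.082), and IARS1 without Ctrl replicate 1 (0.0945), Ctrl replicate 3 (0.0624) or M1 EV replicate 3 (0.136). In the IARS1 data the M1 EV libraries were at 378.4, 378.4 and 401.1 CPM and the Ctrl libraries at 354.1, 368.2 and 359.5.

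CARS1, the cysteinyl-tRNA synthetase, and AARS1 moved the other way. CARS1 was at 201.3, 201.0 and 211.9 CPM in Ctrl and at 184.9, 189.0 and 181.0 in M1 EV, a log2 fold change of -0.15 ± 0.036 (adjusted p = 0.00144). The M0 EV and M2 EV libraries, at 205.2 to 210.0 and 202.7 to 206.2 CPM, lay within the Ctrl range. AARS1 was at 402.5, 393.2 and 409.1 CPM in Ctrl and at 386.8, 373.4 and 362.9 in M1 EV (log2 fold change -0.10 ± 0.032, adjusted p = 0.0145). Its call was lost without Ctrl replicate 1 (adjusted p = 0.0506), Ctrl replicate 3 (0.0752) or M1 EV replicate 3 (0.104). GARS1 (glycine) was also lower in all 3 M1 EV libraries (240.5 to 246.7 CPM) than in Ctrl (254.4 to 262.2) but did not pass (adjusted p = 0.083). CARS1 overlaps an antisense gene, CARS1-AS1.

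WARS1, the tryptophanyl-tRNA synthetase, is known as a gene that interferon-gamma induces. Its promoter window holds both motifs searched for interferon factors, a core of the interferon-stimulated response element and the gamma-activated site: GAAANNGAA at chr14:100375384-100375412 (minus strand, 55 to 47 bases before the start site), which was in 10.0% of the 40 genes and 8.41% of all genes, and TTCNNNGAA at chr14:100375471-100375499 (142 to 134 bases before it), which was in 10.0% and 8.09%. GAAANNGAA was also in the windows of EARS2, GARS1 and IARS1, so that of its 4 carriers 2 rose (EARS2 and IARS1) and 2 did not pass with M1 EVs. TTCNNNGAA was also in those of PARS2, TARS1 and WARS2, and none of its 4 carriers was called. The WARS1 windows are shown because it alone of the 40 genes held both motifs.
WARS1, GAAANNGAA: tttcagaaggGAAACTGAAagaaagaggg
WARS1, TTCNNNGAA: gctcaagtgtTTCTGAGAAtctgggtgat
WARS1 was at 240.5, 233.5 and 242.1 CPM in Ctrl and at 256.5, 244.2 and 253.9 in M1 EV. These libraries did not overlap, yet the log2 fold change of 0.07 ± 0.034 did not pass (adjusted p = 0.1), with a 95% interval of 0.01 to 0.14. In the same libraries 8 of 13 tested interferon-gamma reference genes rose and 0 fell (median log2 fold change 0.33, 61.5% called beside 28.1% of all genes). NLRC5, an activator of class I antigen presentation genes, rose by 0.70 ± 0.074 (adjusted p = 5.72e-10), and GBP1, a guanylate-binding protein, by 0.62 ± 0.069 (2.15e-09). The peptide transporter genes TAP2 and TAP1 rose by 0.36 ± 0.040 (2.69e-09) and 0.56 ± 0.076 (1.94e-07), and IRF1 had a value of -0.06 ± 0.047 (0.427).

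The other 7 cytosolic genes had no call in M1 EV against Ctrl. TARS1, the main threonyl-tRNA synthetase, was at 307.7 ± 9.79 CPM in Ctrl and 325.6 ± 6.95 in M1 EV (adjusted p = 0.0734) and passed without Ctrl replicate 2 (0.034) or M1 EV replicate 2 (0.0491). EPRS1 (glutamate and proline), MARS1 (methionine), QARS1 (glutamine), RARS1 (arginine) and SARS1 (serine) had log2 fold changes between -0.04 and 0.03. TARS3, at 7.33 ± 0.946 CPM in Ctrl, had a value of 0.01 ± 0.14. Of the 7 enzymes held in the multisynthetase complex, 3 rose (IARS1, KARS1 and LARS1) and 0 fell, with a median of 0.03, against 6 higher and 2 lower of the 13 outside it, with a median of 0.08. Split by the architecture of the catalytic domain, class I enzymes gave 4 higher and 1 lower of 10, and class II enzymes 5 higher and 1 lower of 10. Of all genes tested 28.1% were called, and no difference between these subsets was tested.

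Among the 16 mitochondrial synthetase genes, 3 rose (MARS2, EARS2 and LARS2), 0 fell and 13 did not pass, 18.8% beside the 28.1% of all genes. Their log2 fold changes ranged from -0.14 to 0.49, with a median of 0.02, and their summed level was 656.7 to 664.0 CPM in Ctrl and 672.1 to 684.8 in M1 EV. In M0 EV and M2 EV it was 662.7 to 672.6 and 655.1 to 672.6 CPM, and both ranges overlapped that of M1 EV. At an unadjusted p below 0.05 there were 4.

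MARS2, the mitochondrial methionyl-tRNA synthetase (chr2:197705369-197708395), had the largest change of any synthetase gene. It was at 11.9, 11.5 and 13.0 CPM in Ctrl, 13.7, 13.1 and 15 in M0 EV, 16.5, 16.9 and 17.8 in M1 EV and 13.0, 12.8 and 16.1 in M2 EV. The M1 EV libraries were above all others, although M2 EV replicate 3 came close. The log2 fold change over Ctrl was 0.49 ± 0.096 (adjusted p = 0.000112), or 1.40-fold. The cytosolic partner MARS1 stayed at a log2 fold change of -0.0049 ± 0.037 (adjusted p = 0.943).

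EARS2, the mitochondrial glutamyl-tRNA synthetase, was at 52.2, 49.3 and 46.2 CPM in Ctrl and at 56.9, 62.2 and 58.4 in M1 EV (log2 fold change 0.27 ± 0.055, adjusted p = 0.000181). It overlaps the gene GGA2 over 3606 bases. LARS2 (leucine) went from 58.8 ± 1.30 to 64.6 ± 1.66 CPM (0.14 ± 0.050, adjusted p = 0.0363), a call lost in 9 of 25 alternatives. These included leaving out Ctrl replicate 1 (adjusted p = 0.0535), 2 (0.0531) or 3 (0.14), or M1 EV replicate 2 (0.13) or 3 (0.0577). LARS1 and LARS2 were the only pair of the 16 in which both enzymes were called higher.

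Of the other 13, RARS2 (arginine) and CARS2 (cysteine) had groups that did not overlap, both with lower values in M1 EV, at log2 fold changes of -0.14 ± 0.063 (adjusted p = 0.105) and -0.11 ± 0.062 (0.232). RARS2 passed without M1 EV replicate 1 (0.0433). PARS2, at 6.59, 7.49 and 8.34 CPM in Ctrl and 9.28, 10.6 and 6.66 in M1 EV, had the widest spread, with adjusted p = 0.195, and 0.0181 without M1 EV replicate 3. YARS2 (tyrosine) had a value of 0.12 ± 0.061 (adjusted p = 0.151). The remaining 9, AARS2, FARS2, HARS2, IARS2, NARS2, SARS2, TARS2, VARS2 and WARS2, lay between -0.08 and 0.04.

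**Figure D3:**
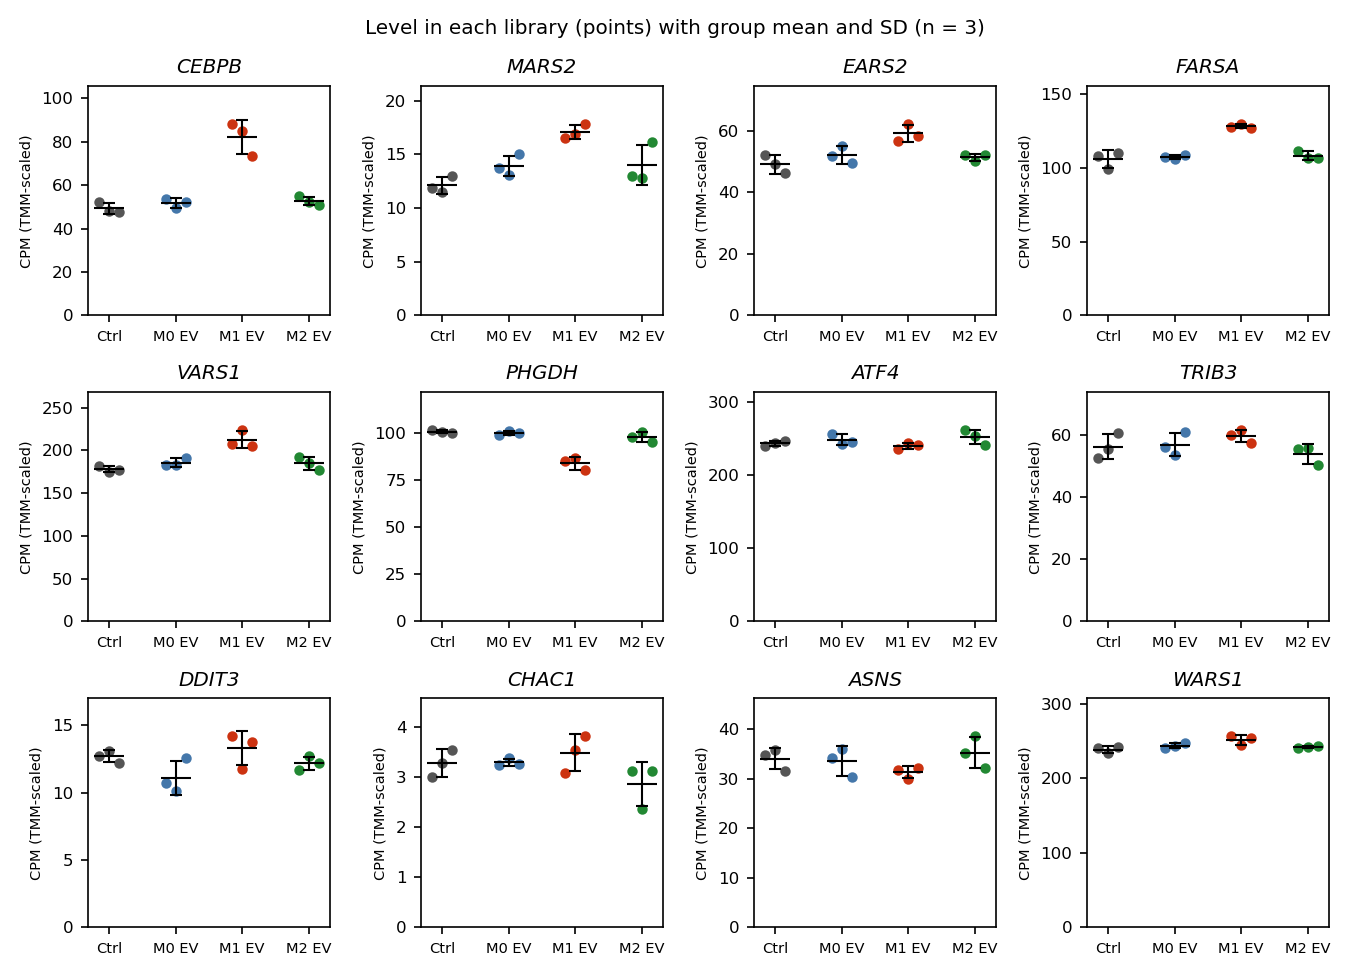
CPM (TMM-scaled) of 12 of the genes in each of the 12 libraries (points), with group mean and SD (n = 3), axes from 0. CEBPB, MARS2, EARS2, FARSA and VARS1 are higher and PHGDH lower in all 3 M1 EV libraries than in every Ctrl library, while ATF4, TRIB3, DDIT3, CHAC1 and ASNS overlap between those groups.

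Among the 6 regulators and effectors of the stress response, CEBPB was the only gene called (16.7% beside 28.1% of all genes). CEBPB, a C/EBP transcription factor that also acts in inflammatory and acute-phase signalling, was at 52.1, 48.1 and 47.7 CPM in Ctrl, 53.8, 49.5 and 52.2 in M0 EV, 88.1, 85.1 and 73.5 in M1 EV and 54.8, 52.4 and 51.1 in M2 EV. Every M1 EV library was well above the other 9. The log2 fold change over Ctrl was 0.74 ± 0.057 (1.67-fold, adjusted p = 2.08e-13). CEBPB lies at chr20:50190583-50192690 and overlaps CEBPB-AS1 over 1487 bases.

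ATF4 was at 239.6, 243.5 and 246.7 CPM in Ctrl and at 234.8, 243.0 and 240.8 in M1 EV. The groups overlapped, and the log2 fold change was -0.02 ± 0.036 (adjusted p = 0.701), with a 95% interval of -0.10 to 0.05. ATF4 lies at chr22:39520559-39522686. TRIB3, a pseudokinase that restrains ATF4, was at 52.5, 55.3 and 60.4 CPM in Ctrl and at 59.8, 61.4 and 57.4 in M1 EV, with an interval of -0.03 to 0.20 around 0.08.

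The remaining 3 effectors were low and their intervals wide. DDIT3, which promotes cell death under prolonged stress, was at 12.7, 13.1 and 12.2 CPM in Ctrl and at 14.2, 11.8 and 13.8 in M1 EV, with a log2 fold change of 0.06 (95% interval -0.13 to 0.26). DDIT3 and MARS1 overlap over 65 bases. CHAC1 was at 3.28 ± 0.277 CPM and 3.49 ± 0.367 (interval -0.27 to 0.45), and SESN2, a leucine sensor that restrains mTORC1, at 7.68 ± 0.444 and 8.54 ± 0.986 (interval -0.11 to 0.40). The groups of all 3 genes overlapped.

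Of the 6 metabolic enzymes, 2 fell, 2 rose and 2 did not pass the test (66.7% called beside 28.1% of all genes). PHGDH, which starts serine synthesis from 3-phosphoglycerate (chr1:119711934-119744215), was at 101.7, 100.8 and 100.1 CPM in Ctrl, 99.1 to 101.3 in M0 EV, 85.3, 86.9 and 80.4 in M1 EV and 98.1, 100.8 and 95.3 in M2 EV. The M1 EV libraries were below all others, with a log2 fold change of -0.26 ± 0.043 (adjusted p = 8.86e-06). PSAT1, the next enzyme, was at 128.9, 124.6 and 125.5 CPM in Ctrl and at 114.3, 117.4 and 116.0 in M1 EV (-0.12 ± 0.041, adjusted p = 0.0192). Its call was lost without Ctrl replicate 1 (0.0972) or M1 EV replicate 1 (0.0682). PSPH, which completes serine, had a value of -0.06 ± 0.060 (adjusted p = 0.492), and ASNS one of -0.12 ± 0.073 (0.231) with overlapping libraries.

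SHMT2 and MTHFD2, which act in turn to pass the carbon of serine into mitochondrial folate, rose. SHMT2 was at 146.2, 148.4 and 152.3 CPM in Ctrl and at 162.4, 171.3 and 158.3 in M1 EV (log2 fold change 0.14 ± 0.039, adjusted p = 0.00566). It was not called without M1 EV replicate 2 (adjusted p = 0.0616). MTHFD2, the next step, was at 94.1, 92.3 and 93.7 CPM in Ctrl and at 105.0, 101.2 and 106.2 in M1 EV (0.16 ± 0.046, adjusted p = 0.00813). MTHFD2 overlaps the gene SLC4A5 over 1324 bases. The M1 EV and Ctrl libraries overlapped for neither gene.

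The other genes of these pathways were taken from lists and read the same way in M1 EV against Ctrl. Of 19 genes for eIF2, its kinases and its control, 4 rose and 1 fell (26.3% beside 28.1% of all genes; median 0.01). The gene that fell was EIF2AK4, the kinase GCN2 that senses uncharged transfer RNA, with means of 206.9 CPM in Ctrl and 176.4 in M1 EV (-0.23 ± 0.040 on the log2 scale, adjusted p = 2.05e-05). EIF2S1, the eIF2 subunit that these kinases phosphorylate, rose from 251.6 to 285.7 CPM (0.18 ± 0.036, adjusted p = 0.00012). DNAJC3, a chaperone that also inhibits PERK and PKR, rose by 0.27 ± 0.056 (0.000243), and EIF2S3 by 0.12 ± 0.039 (0.0193). EIF2AK1, EIF2AK2 and EIF2AK3 had values of 0.0074, -0.0091 and -0.0071, and PPP1R15A, the stress-induced eIF2 phosphatase subunit, one of 0.04 (adjusted p = 0.552).

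Of 38 other ATF4 target genes, 34 were tested, 10 rose and 6 fell (47.1%, median 0.01). The share called was 28.1% of all genes and 35.3% of those with a mean of at least 20 CPM. Those with the smallest adjusted p all rose: SQSTM1, an autophagy receptor, by 0.40 ± 0.032 (4.15e-13), VEGFA, an angiogenic factor, by 0.26 ± 0.034 (1.08e-07), GADD45A, a stress gene of growth arrest, by 0.46 ± 0.063 (2.04e-07), and XPOT, the exporter of transfer RNA, by 0.24 ± 0.036 (1.56e-06). Several of these have other regulators than ATF4. The 6 that fell were chosen for naming after their values were seen. ALDH1L2, another enzyme of mitochondrial folate metabolism, went from 93.0 CPM in Ctrl to 78.7 in M1 EV (-0.24 ± 0.046, adjusted p = 9.18e-05). The amino acid carriers among them were SLC6A9 for glycine (-0.47 ± 0.094, 0.000156), SLC7A11 for cystine (-0.27 ± 0.076, 0.0061) and SLC38A2 for neutral amino acids (-0.12 ± 0.036, 0.00834). The others were DDIT4, an inhibitor of mTORC1 signalling (-0.17 ± 0.056, 0.0167), and NUPR1, a stress-induced regulator of transcription (-0.30 ± 0.11, 0.0265). The transcription factors ATF3 and ATF5 had values of -0.17 ± 0.18 and 0.02 ± 0.049 and did not pass.

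Of 22 genes of the ATF6 and XBP1 branches of the unfolded protein response, the other arms of the response to misfolded protein in the endoplasmic reticulum, 8 rose and 0 fell (36.4%, median 0.08). Beside this stand 28.1% of all genes and 35.3% of those with a mean of at least 20 CPM. HYOU1 and HSPA5, chaperones of the reticulum, rose by 0.36 ± 0.036 (adjusted p = 1.95e-10) and 0.21 ± 0.027 (8.99e-08). PDIA4 and DNAJB11 rose by 0.20 ± 0.034 (1.11e-05) and 0.23 ± 0.043 (7.67e-05). Of 19 other tRNA charging factors, 5 rose and 1 fell (31.6% beside 28.1% of all genes, median 0.05). AIMP2, a scaffold of the complex, rose from 37.4 to 46.9 CPM (0.32 ± 0.058, adjusted p = 3.3e-05), TUFM, the mitochondrial elongation factor, by 0.16 ± 0.035 (0.000411) and EEF1B2 by 0.14 ± 0.039 (0.00543). EEF1A1, which carries charged transfer RNA to the ribosome and has pseudogenes that could share its reads, fell by 0.09 on the log2 scale (adjusted p = 0.0103).

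**Figure D4:**
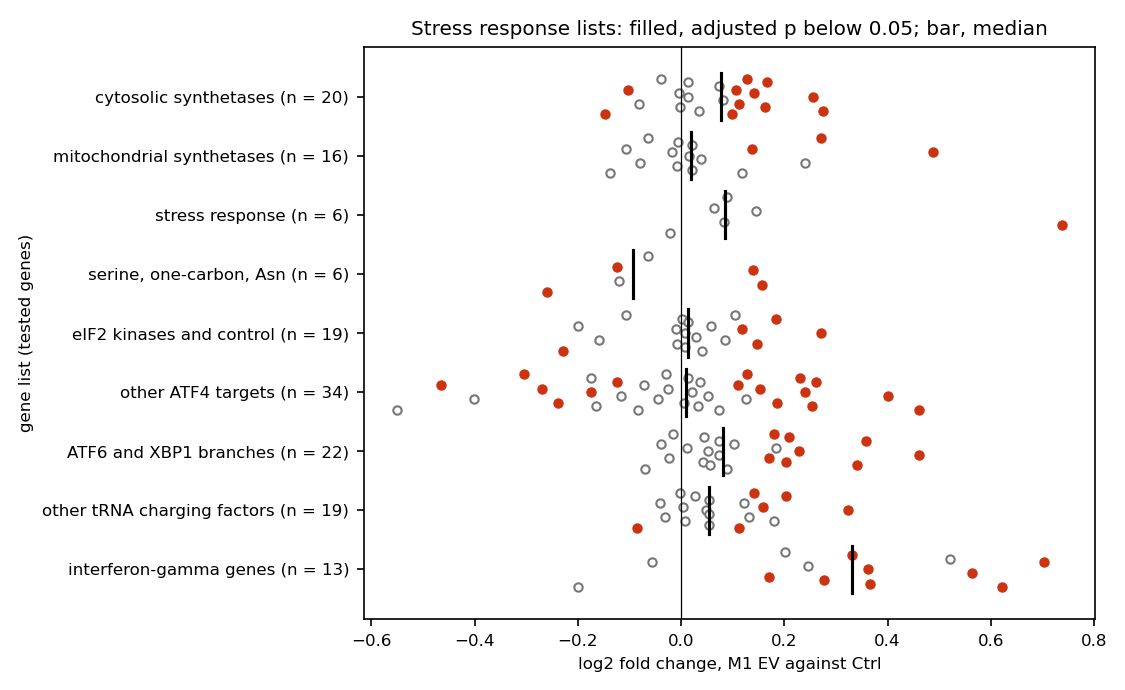
Log2 fold change of each tested gene in M1 EV against Ctrl, by list; red filled points have an adjusted p below 0.05, bars are list medians, and vertical spread within a list only separates points. The eIF2 and ATF4 target lists have medians near 0 (0.01 each) with calls on both sides, and the interferon-gamma list has the highest median (0.33).

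The M0 EV and M2 EV groups show what vesicles of the other macrophage states did to the same genes. In M0 EV against Ctrl 0.0153% of all genes were called, in M2 EV against Ctrl 0.0458% and in M2 EV against M0 EV 0.0%, and none of the 48 genes was among them by edgeR, DESeq2 or limma-voom. At an unadjusted p below 0.05 there were 2 (NARS2 and RARS2), 1 (MARS2) and 0. The log2 fold changes over Ctrl ranged from -0.18 to 0.20 with M0 EVs and from -0.22 to 0.20 with M2 EVs. MARS2 had values of 0.20 ± 0.099 with M0 EVs (adjusted p = 0.965) and 0.20 ± 0.096 with M2 EVs (0.786), and CEBPB one of 0.08 with M0 EVs. Groups did not overlap in 4, 4 and 5 of the 48 genes, in that order of comparisons. The share of all tested genes without overlap was not counted, so these counts cannot be read as a trait of the 48.

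M1 EV was also set against the other vesicles, which carried the same particle number. These comparisons share the M1 EV libraries with the one above and are not independent of it. Against M0 EV, 12 of the 48 genes were higher and 5 lower (35.4%, beside 25.3% of all genes). Against M2 EV 12 were higher and 4 lower (33.3%, beside 24.6% of all genes). At a mean of at least 20 CPM, 40% of the members and 31.7% of all genes were called against M0 EV. Against M2 EV these shares were 37.5% and 30.5%. DESeq2 called 9 of the 48 (6 higher, 3 lower) against M0 EV and 11 (8 higher, 3 lower) against M2 EV. Of all 18839 genes in that fit, 1064 were higher and 973 lower against M0 EV, and 1010 and 903 against M2 EV. With any single library left out, 7 of the 17 genes kept the call against M0 EV and 8 of the 16 against M2 EV.

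CEBPB was higher in M1 EV by 0.66 ± 0.056 on the log2 scale against M0 EV (adjusted p = 2.47e-12) and by 0.64 ± 0.054 against M2 EV (2.94e-12). FARSA was higher by 0.25 ± 0.041 (6.98e-06) and 0.25 ± 0.040 (1.09e-05), and VARS1 by 0.19 ± 0.038 (0.000152) and 0.20 ± 0.038 (7.38e-05). PHGDH was at -0.25 ± 0.042 (1.77e-05) and -0.22 ± 0.042 (9.69e-05), AARS1 at -0.15 ± 0.032 (0.000478) and -0.13 ± 0.032 (0.00176), and CARS1 at -0.17 ± 0.035 (0.000321) and -0.14 ± 0.035 (0.00212). These 6 genes kept both calls with any single library left out. ATF4 had values of -0.05 ± 0.036 (adjusted p = 0.346) and -0.07 ± 0.035 (0.152).

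A few genes were called between vesicle types and not against Ctrl. TARS1 was higher in M1 EV by 0.11 ± 0.034 against M0 EV (adjusted p = 0.0196) and by 0.09 ± 0.034 against M2 EV (0.043). The first call was lost without M0 EV replicate 2 (0.0926) or 3 (0.0817) or M1 EV replicate 1 (0.0503) or 3 (0.0527), and the second without M1 EV replicate 1 (0.101) or 3 (0.113) or M2 EV replicate 1 (0.095) or 2 (0.134). NARS2 was higher than with M0 EVs by 0.20 ± 0.076 (0.0477) and lost the call without M0 EV replicate 3 (0.244) or M1 EV replicate 1 (0.168), 2 (0.0603) or 3 (0.0528). GARS1 was lower than with M0 EVs, at -0.11 ± 0.035 (0.0197), and lost the call without M0 EV replicate 1 (0.19) or M1 EV replicate 2 (0.0898). TRIB3 was higher than with M2 EVs by 0.15 ± 0.056 (0.044) and lost the call without M1 EV replicate 1 (0.088) or 2 (0.159) or M2 EV replicate 3 (0.249).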

How the data were processed

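RNA was measured in 12 libraries. The deposited values are expected counts (multiples of 0.5; 51.3% of those above 0 were fractional) for 70507 transcripts with no normalization. The submitters' processing notes name STAR 2.6.1b, HOMER 4.10 and hg38 without roles. How reads shared by isoforms or near-identical copies were counted, and any use of strand, were not given in the sources used here. For M0 EV replicate 1 the column name spells the cell line without its digit and was matched by the rest of its name.

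Transcripts were named with RefSeq (69824) and GENCODE 29 (349), and the 334 without a name, 0.0584% to 0.0623% of counts, were left out. Each gene was its most counted transcript, rounded. For CARS1, FARSB, TARS1 and CARS2 this is a non-coding isoform's entry. Lengths per kb came from GENCODE 29 for 47 of the 48 genes (CHAC1 had none; CARS2, HARS2, RARS2 and PSPH by another transcript of the gene). In R 4.3.3, edgeR 4.0.16 fitted 1 term per group over all 12 libraries (default filter, 13112 genes, TMM factors 0.993 to 1.007, residual degrees of freedom 8, biological variation 2.59%) and tested 6 comparisons 2-sided. CPM are TMM-scaled. Outside the 48, each pathway list gave the names of at most 4 genes, those of smallest adjusted p in M1 EV against Ctrl, and the eIF2 kinases, PPP1R15A, ATF3, ATF5 and IRF1 were named whatever their values; the ATF4 targets that fell and the cell markers were named outside this rule. The 48 genes and all lists were chosen with earlier results of these data known. Alternatives were DESeq2 1.42.0, limma-voom (limma 3.58.1), other scalings, filters and transcript choices, a replicate block, a 1.1-fold threshold and leaving out each library; 2 were chosen after seeing the data (summing M0 EV replicates 2 and 3, and subtracting the median gene).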

Additional observations from a re-analysis of the deposited data

How the results depend on the processing

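Of the 19 genes called in M1 EV against Ctrl, 6 (FARSA, VARS1, EARS2, MARS2, CEBPB and PHGDH) kept the call in all 25 alternatives, 13 lost it in at least 1, and 0 changed sign. Subtracting the median gene, which is among the 25, left the p-values as they were, so no call could be lost there. Asking for more than 1.1-fold (glmTreat) left 6 of the 48 genes in M1 EV against Ctrl, 3 against M0 EV and 2 against M2 EV, with 2 cytosolic synthetases and 1 metabolic enzyme against Ctrl, where 705 of all genes were higher and 855 lower in place of 1881 and 1801. Against M0 EV that threshold left 591 of all genes higher and 697 lower, and against M2 EV 540 and 618. DESeq2, over 18839 genes, called 15 of the 48 against Ctrl (1222 of all genes higher and 1147 lower). Against M0 EV it called 9 of the 48 (1064 of all genes higher and 973 lower). Leaving out 1 library gave 13 to 19 genes against Ctrl, 13 to 18 against M0 EV and 11 to 17 against M2 EV. Against Ctrl these were 6 to 12 cytosolic and 2 to 4 mitochondrial synthetases, 1 stress gene and 3 to 4 metabolic enzymes. In the same fits, 1576 to 1978 of all genes were higher and 1471 to 1864 lower against Ctrl. Against M0 EV the ranges over all genes were 1345 to 1748 and 1283 to 1616, and against M2 EV 1319 to 1758 and 1230 to 1624. Same-numbered libraries did not vary together (correlations of deviations -0.047 to 0.09), and a fit with a replicate block called 19 genes against Ctrl, 17 against M0 EV and 17 against M2 EV. That fit called 1920 of all genes higher and 1837 lower against Ctrl. The counts were 1682 and 1735 against M0 EV and 1693 and 1622 against M2 EV. Genes that changed sign when 1 library was left out had no call: EPRS1 (-0.0107 to 0.0463), MARS1 (-0.0244 to 0.0333), SARS1 (-0.0115 to 0.0157, and 0.00546 with the mean over transcripts), TARS3 (-0.0649 to 0.125), AARS2 (-0.0516 to 0.0762), FARS2 (-0.13 to 0.00613), HARS2 (-0.0293 to 0.0857), IARS2 (-0.0301 to 0.0271), NARS2 (-0.0305 to 0.103), SARS2 (-0.0562 to 0.073) and VARS2 (-0.054 to 0.0327). The cause of a lost call was not tested. Depth was lowest for CHAC1, with 428 counts over 12 libraries.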
